A study of Mus musculus with 4 samples.

Results

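A set of 10 genes of the TGF-beta system was followed through the cells of the mouse lung that carry neither the leukocyte antigen CD45 nor the endothelial antigen CD31. The 10 genes were chosen by symbol among 31055 features. They are the ligands Tgfb1, Tgfb2 and Tgfb3, the latent TGF-beta binding proteins Ltbp1, Ltbp2, Ltbp3 and Ltbp4, the receptors Tgfbr2 and Tgfbr3, and Tgfbi, a secreted matrix protein named for its induction by TGF-beta. The lungs came from mice of about 8 weeks that were heterozygous for Gli1-CreERT2 and for the Rosa26 mTmG reporter and had received tamoxifen. In these mice the Gli1 locus drives a tamoxifen-dependent recombinase, and cells in which it has acted, with their descendants, exchange membrane TdTomato for membrane GFP. All 10 genes are protein coding; on mm10 Tgfbi lies on the plus strand at chr13:56609523-56639562, Ltbp2 on the minus strand at chr12:84783212-84876532 and Tgfb2 on the minus strand at chr1:186622792-186705989. The labels' strain field names C57BL/6J while their protocols name B6D2F1/J, so the strain is not settled, and the kit version also differs between the labels and the series' design text. All 4 samples carry the same labels and form 1 group, with no control group, and their cells are pooled in 1 matrix in which no file used here tells the samples apart. All values below are therefore those of 1 sample: no test between conditions was possible, no p-value of this kind is given, and the 95% intervals cover counting error only.

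TGF-beta is secreted in an inactive form. The ligand stays wrapped in its own propeptide, and a latent TGF-beta binding protein ties this latent complex to fibrillin microfibrils in the extracellular matrix, from which integrins, thrombospondin-1 or proteases can release the ligand. Ltbp1, Ltbp3 and Ltbp4 carry latent TGF-beta, whereas Ltbp2 does not bind it and acts with microfibrils. The free ligand binds the type II receptor Tgfbr2, which recruits the type I receptor Tgfbr1, while Tgfbr3, or betaglycan, is a co-receptor that is most needed for Tgfb2. In the lung the system is known for its part in alveolar formation, elastic fibre assembly and fibrosis, and loss of Ltbp4 in the mouse leads to enlarged airspaces.

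The promoters of the ligands Tgfb1 and Tgfb2, taken from RefSeq on the build GRCm38.p6, are printed because these ligands were distributed differently over the cells. Over the 7 mesenchymal and alveolar epithelial classes of cells, Tgfb1 had a narrower range of levels than Tgfb2, which was concentrated in a few. Outside these classes Tgfb1 varied more widely. It was lower in ciliated-like and club-like cells and higher in leukocyte-like and endothelial-like cells. Each runs 5′ to 3′ from 250 bases before the start site to 50 bases after it. The Tgfb2 promoter lies on the minus strand at chr1:186705940-186706239, has 54.3% G and C, and holds 1 TATAAA (in capitals), which starts at base -31 from the start site.
Tgfb2: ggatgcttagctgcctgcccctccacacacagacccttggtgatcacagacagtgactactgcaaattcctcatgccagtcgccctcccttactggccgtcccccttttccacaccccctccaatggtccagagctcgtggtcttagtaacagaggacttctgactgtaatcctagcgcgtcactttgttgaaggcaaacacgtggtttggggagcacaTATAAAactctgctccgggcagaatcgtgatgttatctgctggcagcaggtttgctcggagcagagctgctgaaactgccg
The Tgfb1 promoter lies on the plus strand at chr7:25686752-25687051, has 77.0% G and C, and holds 6 copies of GGGCGG, the GC box, read on either strand (in capitals), and no TATAAA.
Tgfb1: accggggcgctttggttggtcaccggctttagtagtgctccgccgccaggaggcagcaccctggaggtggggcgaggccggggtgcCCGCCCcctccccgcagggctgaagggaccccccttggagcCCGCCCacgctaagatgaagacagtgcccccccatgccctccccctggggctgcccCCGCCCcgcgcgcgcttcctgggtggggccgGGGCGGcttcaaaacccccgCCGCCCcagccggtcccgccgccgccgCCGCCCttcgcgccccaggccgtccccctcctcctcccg
Among 32851 promoters of the same length, 13.6% held TATAAA and 35.7% held GGGCGG on either strand. The letters TATAAA were absent from the Tgfb1 window and GGGCGG from the Tgfb2 window, which describes these windows and says nothing of which factors bind there. Promoters of 8 of the 10 genes were in the table used; Tgfb3 and Tgfbr3 are named only.

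After filtering, 8933 cells held 76127432 UMIs, that is counts of distinct transcript molecules, and the median cell had 7967 UMIs from 2610 genes. The matrix has 11118 barcodes, which is also the number of recovered cells that the study states, and every barcode is unique in it. Cells were clustered without the 10 genes and without the 88 genes of 6 pathway lists, so that the clusters were not set by what they are used to compare. The marker lists that named the clusters held none of the 10 genes, but shared Aspn, Postn and Comp with the pathway lists. By marker genes, 2615 cells were adventitial fibroblast-like, 3054 alveolar fibroblast-like, 427 peribronchial or myofibroblast-like (called myofibroblast-like here), 179 smooth muscle-like, 208 mesothelial-like, 212 alveolar type 1-like, 1653 alveolar type 2-like, 238 ciliated-like and 74 club-like. In spite of the sort, 66 endothelial-like and 91 leukocyte-like cells remained, and 75 cells in a cluster with genes of both alveolar type 2 cells and alveolar fibroblasts were left unnamed. Median depth ran from 3824 UMIs in myofibroblast-like cells to 30096 in club-like cells, so levels are given as CPM, the UMIs of a gene per 1000000 UMIs of the class. The marker lists were not exclusive to the classes they named. Alveolar fibroblast-like cells had 23560 CPM summed over the adventitial list and 16160 CPM over their own. Adventitial-like cells had 60440 CPM and 4719 CPM over the same lists. Ciliated-like cells had 98420 CPM over the club list and 13500 CPM over the ciliated list.

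**Figure D1:**
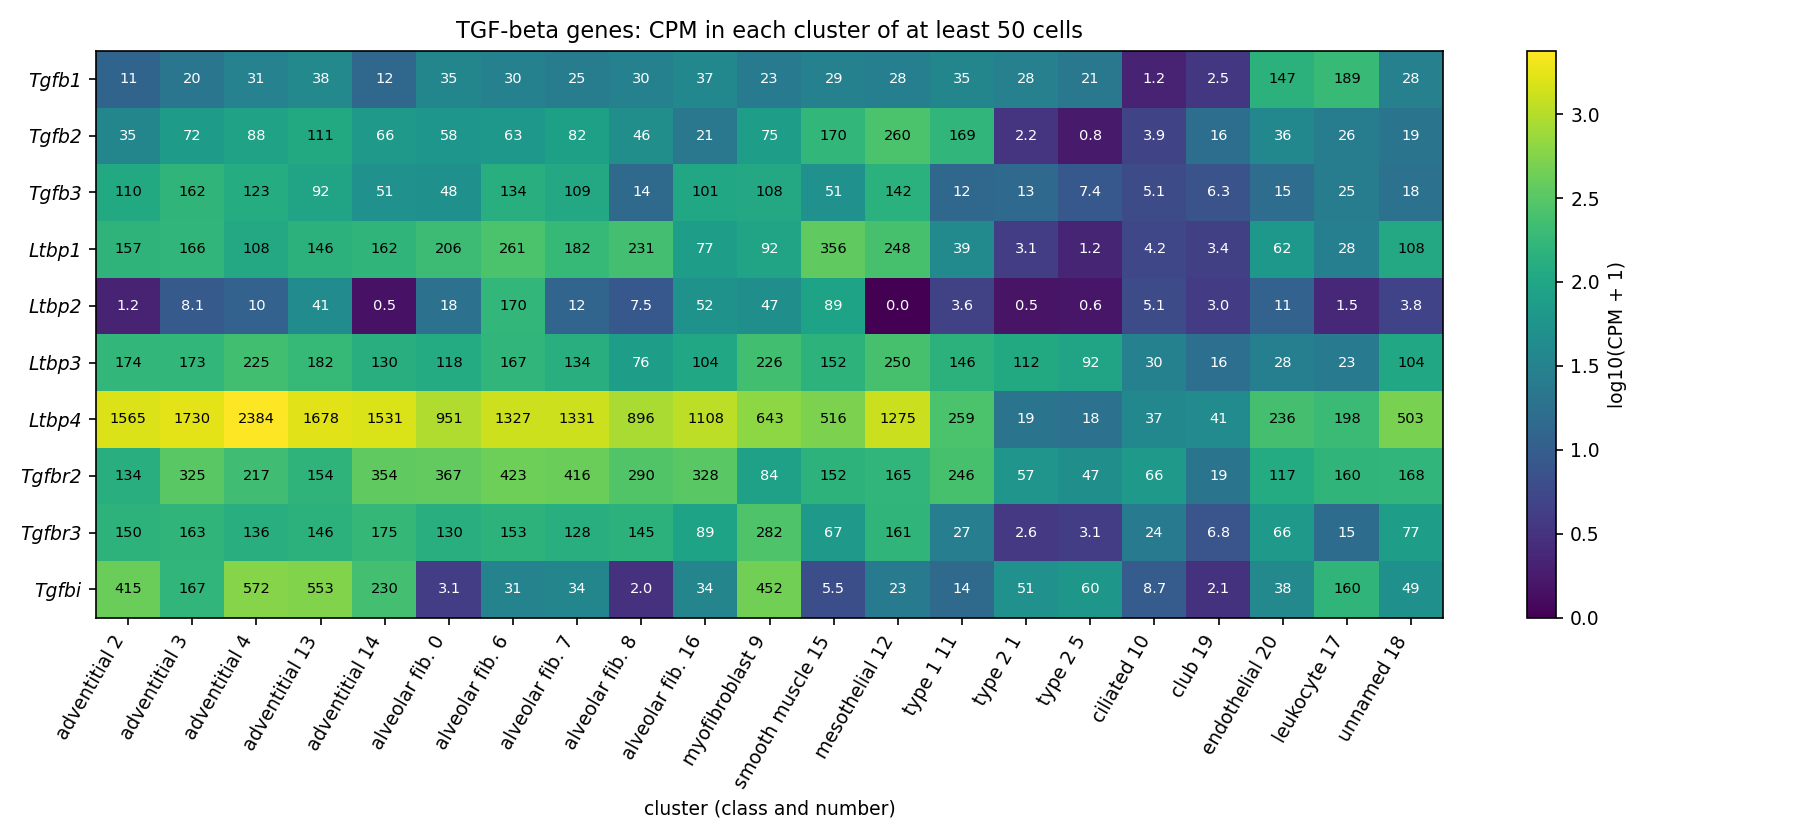
CPM of the 10 genes (rows) in each of 21 clusters of at least 50 cells (columns, named by class and number); the colour gives log10(CPM + 1) and the printed figure the CPM. Ltbp4 is high over all mesenchymal clusters, Tgfbi over the adventitial-like clusters and the myofibroblast-like cluster, and Ltbp2 in cluster 6.

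Across the whole sort, most of the transcripts were higher in pooled mesenchymal than in pooled epithelial cells, of which 1653 were alveolar type 2-like. In mesenchymal cells (the fibroblast, smooth muscle and mesothelial classes, 6483 cells) against epithelial cells (2177), 8 of the 10 genes had a ratio of at least 2, as 25.6% of 14531 genes did, and none had a ratio of 0.5 or less, as 19.4% did. The ratio was 34.2 for Ltbp4 (95% interval 32.1 to 36.4), 32.2 for Ltbp1, 19.0 for Ltbp2, 18.3 for Tgfbr3, 10.7 for Tgfb3, 5.43 for Tgfbi, 4.52 for Tgfb2 and 4.22 for Tgfbr2. The exceptions were Ltbp3, with 165.6 CPM in mesenchymal and 87.9 CPM in epithelial cells, and Tgfb1, with 25.4 CPM in mesenchymal and 20.5 CPM in epithelial cells. The pooled ratios did not hold for every epithelial class. Alveolar type 1-like cells had 168.6 CPM of Tgfb2, against 76.5 CPM in mesenchymal cells, and 245.6 CPM of Tgfbr2, against 283.2 CPM. With doublets kept, the ratio was 8.64 for Ltbp4, 8.52 for Ltbp1, 7.67 for Ltbp2, 7.08 for Tgfbr3 and 6.03 for Tgfb3.

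Most of the pathway lists around the 10 genes also had many genes that were higher in mesenchymal cells. Among all genes with at least 30 UMIs, 25.6% had a ratio of at least 2 and 19.4% one of 0.5 or less. Of the microfibril and matrix partners with at least 100 UMIs, 13 of 14 were at least 2-fold higher in mesenchymal cells, of the soluble or matrix antagonists 11 of 11, and of transcripts known to be induced by TGF-beta 15 of 17, with Col1a1 and Col1a2 at 73.6 and 79.9 times. Of genes for activation of latent TGF-beta 7 of 14 were, and of other receptors and co-receptors 5 of 10. Intracellular signal and feedback genes differed less: 4 of 14 were at least 2-fold higher, which is near the share over all genes. They were led by the feedback inhibitor Pmepa1 at 8.56, and the list's median ratio was 1.48 beside 1.15 over all genes tested. Over all 6 lists, 3 genes had a ratio of 0.5 or less. The integrin subunit Itgb6, whose pairing with Itgav activates latent TGF-beta on epithelia, had 0.323 CPM in mesenchymal and 29.4 CPM in epithelial cells. The cell cycle inhibitor gene Cdkn2b, a known TGF-beta target, had 1.48 CPM in mesenchymal and 27.7 CPM in epithelial cells. The fibrillin gene Fbn2 had 1.11 CPM in mesenchymal and 7.65 CPM in epithelial cells.

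Tgfb1, the ligand best known from fibrosis and immune regulation, was found at low levels in mesenchymal and alveolar epithelial cells. It ran from 21.2 CPM in adventitial-like to 34.9 CPM in alveolar type 1-like cells over 7 classes. Intervals of neighbours in this order overlapped throughout, but those of the ends did not, at 19.4 to 23.1 and 27.0 to 44.3 CPM. Ciliated-like cells, at 1.20 CPM (4 UMIs), and club-like cells, at 2.54 CPM (6 UMIs), lay below. Its highest levels were in the leftover leukocyte-like cells, at 176.5 CPM (147.5 to 209.6), and endothelial-like cells, at 146.8 CPM (114.2 to 185.8). Both classes also held RNA of other cells: Sftpc, an alveolar type 2 gene, was at 6534 CPM in leukocyte-like and 33910 CPM in endothelial-like cells, and the fibroblast gene Dcn at 1279 CPM in leukocyte-like and 727 CPM in endothelial-like cells. Alveolar type 2-like and fibroblast-like cells had 21.2 to 30.3 CPM of Tgfb1. The leukocyte marker list summed to 1708 CPM in endothelial-like and 19560 CPM in leukocyte-like cells. The part of RNA of other cells in these Tgfb1 levels was not tested.

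Tgfb2 had its highest level in mesothelial-like cells, the lining of the lung surface, at 259.5 CPM (236.9 to 283.8). Smooth muscle-like cells followed at 169.8 CPM and alveolar type 1-like cells at 168.6 CPM, whose intervals overlapped, and then myofibroblast-like cells at 75.1, adventitial-like at 68.3 and alveolar fibroblast-like cells at 62.9 CPM. Alveolar type 2-like cells had 26 UMIs among 1653 cells, or 1.62 CPM. After each cell was thinned to 2000 UMIs, 34.9% of mesothelial-like and 30.3% of alveolar type 1-like cells had a Tgfb2 UMI, against 0.304% of alveolar type 2-like cells. Without thinning these shares were 74.0%, 63.2% and 1.39%, at median depths of 8651, 7877 and 9428 UMIs.

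Tgfb3 had its higher levels in mesenchymal cells, at 141.9 CPM in mesothelial-like, 122.5 CPM in adventitial-like, 108.4 CPM in myofibroblast-like, 83.1 CPM in alveolar fibroblast-like and 50.6 CPM in smooth muscle-like cells. Alveolar type 1-like cells had 12.5 CPM and alveolar type 2-like cells 10.9 CPM. It varied most among the alveolar fibroblast-like clusters: cluster 8, led by Bmper and Slc7a10, had 13.6 CPM, cluster 0 had 48 CPM, and cluster 6, led by Bmp7, Lamc3 and Notum, had 134.1 CPM, 9.87 times the lowest. The adventitial-like clusters ran from 50.6 CPM in cluster 14 to 161.7 CPM in cluster 3.

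**Figure D2:**
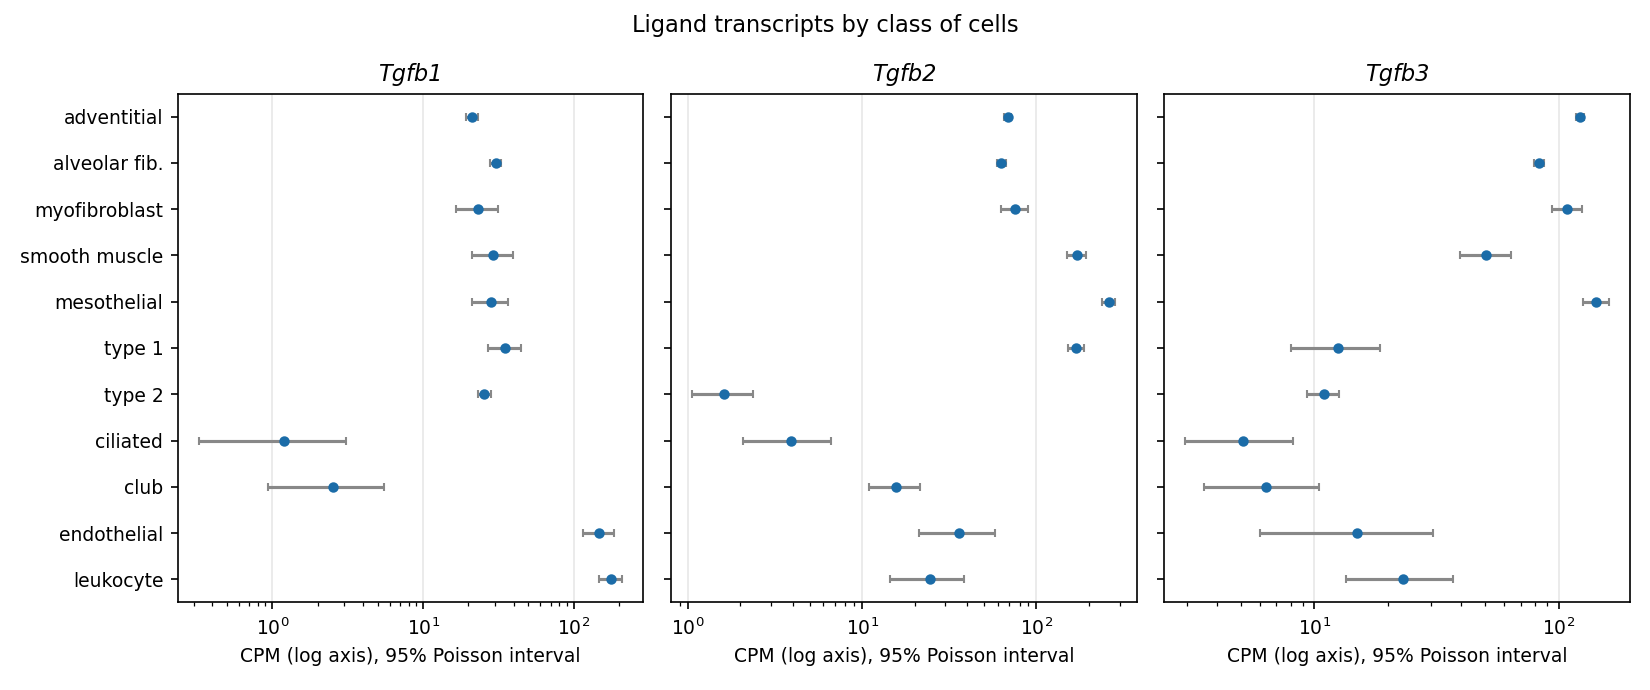
Levels of the ligand transcripts Tgfb1, Tgfb2 and Tgfb3 (CPM, log axis) in 11 classes of cells; points are the summed level of a class and bars the 95% Poisson interval of its count. Tgfb1 is highest in leukocyte-like and endothelial-like cells, Tgfb2 in mesothelial-like cells at 259.5 CPM, and Tgfb3 in mesothelial-like and adventitial-like cells.

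Between adventitial-like fibroblasts, which lie around vessels and airways, and alveolar-like fibroblasts, which lie in the alveolar walls, 1 of the 10 genes had a ratio of at least 2, as 6.66% of 12790 genes did, and 1 a ratio of 0.5 or less, as 9.57% did. Tgfbi was the higher one, with 380.8 CPM in adventitial-like and 18.9 CPM in alveolar-like cells, a ratio of 20.2 (18.2 to 22.5). Coarser clustering gave a ratio of 56.3 and finer clustering 47.0. It ran from 166.7 to 571.5 CPM over the adventitial-like clusters and from 2.04 to 34.1 CPM over the alveolar-like clusters, so the ranges did not overlap. After thinning, 44.5% of adventitial-like and 2.46% of alveolar-like cells had a Tgfbi UMI, and 2.11% of ciliated-like cells did. The alveolar-like share lay within the interval of the ciliated-like share, which was 0.689% to 4.85%. Whether the Tgfbi UMIs of either class came from other cells was not tested. Without thinning the shares were 76.8%, 6.88% and 3.78%, at median depths of 9046, 6024 and 11237 UMIs.

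Ltbp2 was the lower one, with 8.21 CPM in adventitial-like and 59.0 CPM in alveolar-like cells, a ratio of 0.139 (0.119 to 0.162). This ratio rested on cluster 6, a cluster of 659 cells that had 170.1 CPM of Ltbp2 and that the markers placed between both classes: its mean marker score was 0.462 for alveolar and 0.400 for adventitial fibroblasts. Without that cluster the ratio was 0.573, and when coarser clustering placed it with the adventitial-like cells the ratio was 2.66. Finer clustering divided it into 343 alveolar-like cells with 157.2 CPM and 317 adventitial-like cells, led by Aqp2 and Notum, with 180.0 CPM. Ltbp2 thus marked the cluster whichever class it was put in. Over the other fibroblast clusters it ran from 0.477 CPM in cluster 14 to 41.1 CPM in cluster 13 among the adventitial-like and from 7.47 CPM in cluster 8 to 52 CPM in cluster 16 among the alveolar-like.

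The other ligand carriers and receptors differed by less than 2-fold between the fibroblast classes. Ltbp4 had 1852 CPM in adventitial-like and 1144 CPM in alveolar-like cells, a ratio of 1.62 (1.59 to 1.64), with its highest level, 2384 CPM, in cluster 4, which was led by Dio2 and Smoc1. Ltbp3 had 185.0 CPM in adventitial-like and 129.6 CPM in alveolar-like cells. Ltbp1 went the other way, with 145.2 CPM in adventitial-like and 217.7 CPM in alveolar-like cells, as did the signalling receptor Tgfbr2, with 233.0 CPM in adventitial-like and 383.0 CPM in alveolar-like cells, a ratio of 0.608 (0.588 to 0.630). Tgfbr3 had 151.4 CPM in adventitial-like and 137.8 CPM in alveolar-like cells. Among the ligands the ratio was 1.47 for Tgfb3, 1.08 for Tgfb2 and 0.698 for Tgfb1; Tgfb3 reached 1.96 without cluster 6 and 2.39 at the coarser clustering.

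**Figure D3:**
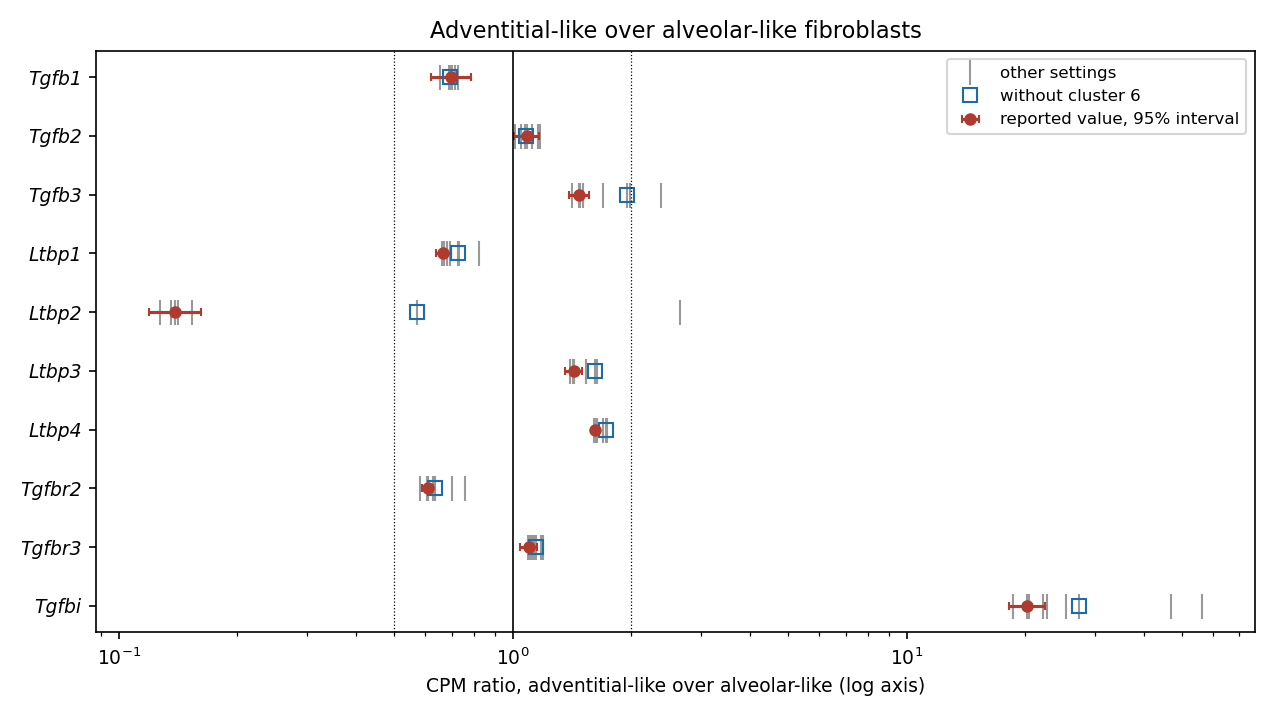
CPM ratio of adventitial-like over alveolar-like fibroblasts for the 10 genes (log axis); filled points are the reported values with 95% intervals, open squares leave out cluster 6, and ticks are the other settings; dotted lines mark 0.5 and 2. Tgfbi lies at 20.2, and Ltbp2 at 0.139 with cluster 6 and 0.573 without it.

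Of the antagonists, 5 of 11 were at ratios of 2 or more in adventitial-like over alveolar-like fibroblasts and none at 0.5 or less. Their median ratio was 1.75 beside 0.909 over all genes tested. Among all genes with at least 30 UMIs, 6.66% were at 2 or more and 9.57% at 0.5 or less. Fst, which encodes the activin antagonist follistatin, had 98.9 CPM in adventitial-like and 2.26 CPM in alveolar-like cells, a ratio of 43.8, and the proteoglycan Lum had 862.7 CPM in adventitial-like and 66.4 CPM in alveolar-like cells. Of transcripts known to be induced by TGF-beta, 6 of 16 reached a ratio of 2 and 2 were at 0.5 or less: Postn had 57.0 CPM in adventitial-like and 1.91 CPM in alveolar-like cells, and Col3a1 10760 CPM in adventitial-like and 3469 CPM in alveolar-like cells, but Tnc had 1.23 CPM in adventitial-like and 58.4 CPM in alveolar-like cells. Of genes for activation of latent TGF-beta, 2 of 13 reached a ratio of 2 and 1 was at 0.5 or less. The lower one was Thbs1, whose product can activate latent TGF-beta, with 162.4 CPM in adventitial-like and 1419 CPM in alveolar-like cells. The type I receptor Tgfbr1, with 26.8 CPM in adventitial-like and 54.2 CPM in alveolar-like cells, and the inhibitory Smad7, with 82.1 CPM in adventitial-like and 167.3 CPM in alveolar-like cells, were also on the alveolar side, at ratios of 0.495 and 0.491.

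Myofibroblast-like cells, of the airway wall and alveolar ducts, combined high Tgfbi and Tgfbr3 with low Tgfbr2. Smooth muscle markers were as high in this class as its own list, which summed to 12790 CPM: the smooth muscle list summed to 13000 CPM in myofibroblast-like and 40630 CPM in smooth muscle-like cells, with Acta2 at 4154 CPM in myofibroblast-like and 19050 CPM in smooth muscle-like cells. The part of these markers in the results for the class was not tested. Against all other mesenchymal cells, 1 of the 10 genes had a ratio of at least 2, as 7.75% of 13226 genes did, and 3 had one of 0.5 or less, as 16.8% did. Tgfbi had 452.4 CPM in myofibroblast-like and 204.3 CPM in other mesenchymal cells, a ratio of 2.21 (2.06 to 2.38). High Tgfbi was not particular to this class: adventitial-like cells had 380.8 CPM, with 571.5 CPM in cluster 4, and alveolar-like cells 18.9 CPM. Tgfbr3 had 282.4 CPM in myofibroblast-like and 143.6 CPM in other mesenchymal cells, a ratio of 1.97 (1.79 to 2.15), and was higher here than in any other class. Tgfbr2 had 83.6 CPM in myofibroblast-like and 290.6 CPM in other mesenchymal cells, a ratio of 0.288 (0.243 to 0.338), and was lowest here among the mesenchymal classes. Ltbp4, with 642.8 CPM in myofibroblast-like and 1493 CPM in other mesenchymal cells, and Ltbp1, with 92.1 CPM in myofibroblast-like and 185.9 CPM in other mesenchymal cells, were the other lower ones. Thinned shares gave the same order for the receptors: 43.1% of myofibroblast-like cells had a Tgfbr3 UMI and 12.8% a Tgfbr2 UMI, beside 25.6% and 32.1% of adventitial-like cells and 0.547% and 11.7% of alveolar type 2-like cells. Without thinning, 61.6% of myofibroblast-like cells had a Tgfbr3 UMI and 26.5% a Tgfbr2 UMI, at a median depth of 3824 UMIs.

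Among all genes with at least 30 UMIs, 16.8% were at most 0.5-fold in the same cells and 7.75% at least 2-fold. Of the microfibril and matrix partners, 9 of 13 were at most 0.5-fold and none at least 2-fold. The lower ones included Fn1, the fibronectin gene, with 46.9 CPM in myofibroblast-like and 673.4 CPM in other mesenchymal cells. Transcripts known to be induced by TGF-beta had 8 of 16 at most 0.5-fold, with Col1a2 at 985.7 CPM in myofibroblast-like and 6430 CPM in other mesenchymal cells, and 1 at least 2-fold, Tnc, at 84.2 CPM in myofibroblast-like and 25.4 CPM in other mesenchymal cells. Thbs1 had 2667 CPM in myofibroblast-like and 694.2 CPM in other mesenchymal cells, a ratio of 3.84, while 3 of the 13 activation genes were at 0.5 or less. Aspn, a TGF-beta-binding proteoglycan, had 2345 CPM in myofibroblast-like and 126.9 CPM in other mesenchymal cells, but it was also among the genes that named the class, and 3 of the 11 antagonists were at 0.5 or less.

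Smooth muscle-like cells, 179 in 1 cluster, had 3 of the 10 genes at ratios of 2 or more over other mesenchymal cells, as 9.83% of 13226 genes were, and 4 at 0.5 or less, as 20.5% were. The higher ones were Ltbp2, with 89.4 CPM in smooth muscle-like and 30.4 CPM in other mesenchymal cells, Tgfb2, with 169.8 CPM in smooth muscle-like and 73.7 CPM in other mesenchymal cells, and Ltbp1, with 356.2 CPM in smooth muscle-like and 177.3 CPM in other mesenchymal cells. The lower ones were Tgfbi, with 5.54 CPM in smooth muscle-like and 219.4 CPM in other mesenchymal cells, Ltbp4, with 516.3 CPM in smooth muscle-like and 1491 CPM in other mesenchymal cells, Tgfbr3, with 66.5 CPM in smooth muscle-like and 151.0 CPM in other mesenchymal cells, and Tgfb3, with 50.6 CPM in smooth muscle-like and 106.4 CPM in other mesenchymal cells. Tgfbr2 had 152.5 CPM in smooth muscle-like and 287.1 CPM in other mesenchymal cells, a ratio of 0.531. The Tgfbi ratio was 0.0253, against 0.205 with doublets kept and 0.299 with finer clustering.

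Finer clustering showed that the cluster held 2 kinds of cells that shared Tgfb2 but not the binding proteins. One, of 57 cells, was pericyte-like, with Higd1b and Vtn leading and Notch3 at 492.1 CPM, and had 468.3 CPM of Ltbp2 (387.6 to 560.8) and 47.6 CPM of Ltbp1. The other, of 122 smooth muscle-like cells, had 9.24 CPM of Ltbp2 and 421.5 CPM of Ltbp1. Tgfb2 was at 214.3 CPM in the pericyte-like and 160.4 CPM in the smooth muscle-like cells. Without the pericyte-like cells the smooth muscle-like ratio of Ltbp2 was 0.304, so the class was then lower, and that of Ltbp1 was 2.38. A further finer cluster, of 51 smooth muscle-like cells with 1903 CPM of Hhip, a gene of the peribronchial list, had 319.6 CPM of Tgfbi and 193.1 CPM of Tgfbr3. The 122 cells had 4.20 CPM of Tgfbi and 64.7 CPM of Tgfbr3. It was not in the smooth muscle class above.

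**Figure D4:**
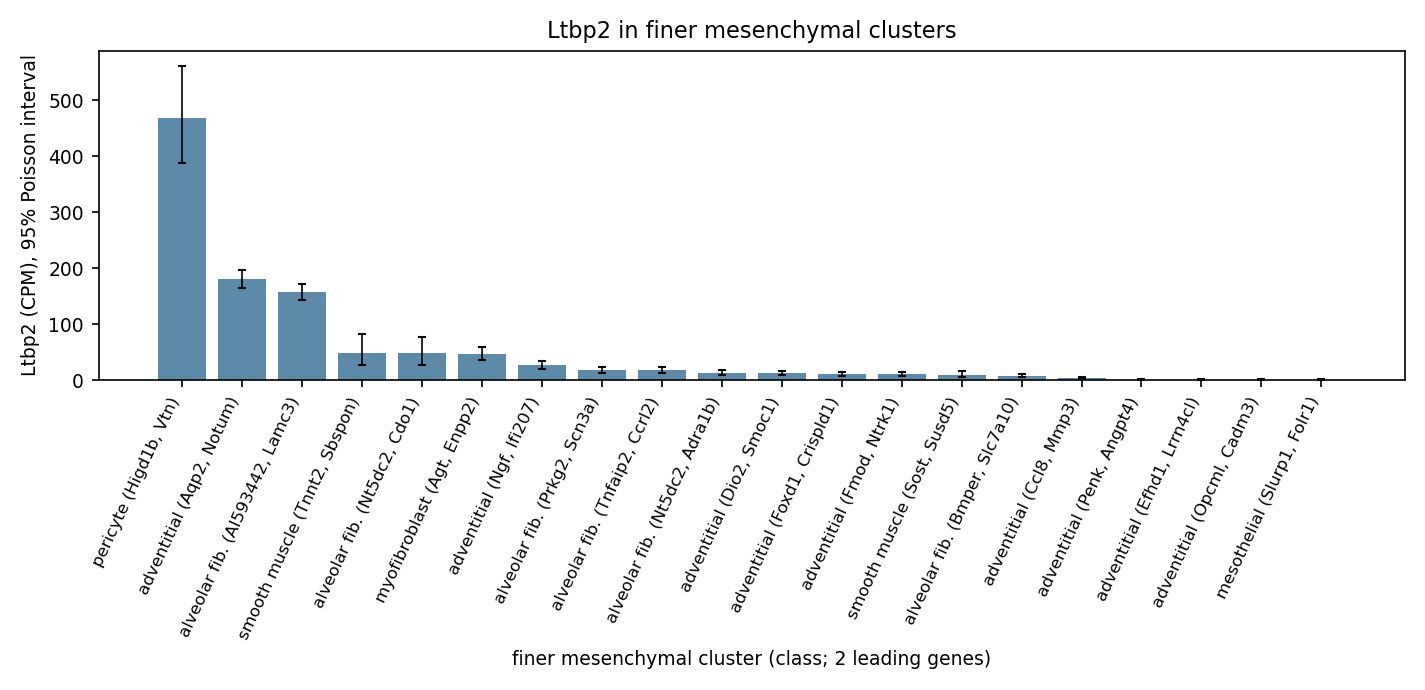
Ltbp2 (CPM; bars start at 0, whiskers are 95% Poisson intervals) in finer mesenchymal clusters, each named by its class and its leading genes. The pericyte-like cluster has 468.3 CPM and the pair of clusters from cluster 6 have 180.0 and 157.2 CPM; all others are below these.

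In mesothelial-like cells 1 of the 10 genes had a ratio of at least 2 over other mesenchymal cells, as 15.2% of 13226 genes did, and 2 had one of 0.5 or less, as 18.9% did. Tgfb2 had 259.5 CPM in mesothelial-like and 69.4 CPM in other mesenchymal cells, a ratio of 3.74 (3.39 to 4.12). Tgfbi had 23.2 CPM in mesothelial-like and 220.5 CPM in other mesenchymal cells. Ltbp2 had no UMI among 1853327 in 208 mesothelial-like cells, against 33.4 CPM in other mesenchymal cells, and the 95% interval of the ratio reached up to 0.0597. The ratios of Tgfb1, Tgfb3, Ltbp1, Ltbp3, Ltbp4 and Tgfbr3 lay between 0.867 and 1.54, and that of Tgfbr2 was 0.572.

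Of transcripts known to be induced by TGF-beta, 14 of 16 were at most 0.5-fold in mesothelial-like cells and none at least 2-fold, with a median ratio of 0.195 beside 1.03 over all genes tested; the feedback gene Pmepa1 had 80.9 CPM in mesothelial-like and 817.8 CPM in other mesenchymal cells. The list holds many fibroblast matrix genes, such as Postn, which had no UMI in mesothelial-like cells. The other lists also had more genes at 0.5 or less than at 2 or more. Among all genes with at least 30 UMIs, 18.9% were at 0.5 or less and 15.2% at 2 or more. Of the activation genes 5 of 13 were lower and 2 higher, of the microfibril and matrix partners 6 of 13 lower and 2 higher, of the antagonists 6 of 11 lower and 3 higher, of the other receptors and co-receptors 6 of 10 lower and none higher, and of the signal and feedback genes 4 of 14 lower and 1 higher. Thbs1 had 49.6 CPM in mesothelial-like and 792.6 CPM in other mesenchymal cells. The matrix gene Emilin1 had 4.32 CPM in mesothelial-like and 159.7 CPM in other mesenchymal cells. The integrin subunits Itgav, with 138.1 CPM in mesothelial-like and 57.9 CPM in other mesenchymal cells, and Itgb3, with 35.6 CPM in mesothelial-like and 5.94 CPM in other mesenchymal cells, were higher, as were the elastic fibre protein gene Efemp1, with 2433 CPM in mesothelial-like and 250.4 CPM in other mesenchymal cells, and the microfibril gene Mfap2, with 758.1 CPM in mesothelial-like and 233.8 CPM in other mesenchymal cells.

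Alveolar type 1 cells form the thin gas-exchange surface and alveolar type 2 cells make surfactant. In type 1-like against type 2-like cells, 5 of 9 genes with at least 30 UMIs had a ratio of at least 2, as 27.5% of 11261 genes did, and 1, Tgfbi, had one of 0.5 or less, as 12.4% did. Tgfb2 had 168.6 CPM in type 1-like and 1.62 CPM in type 2-like cells, and Tgfbr2 245.6 CPM in type 1-like and 52.8 CPM in type 2-like cells. The Tgfb2 ratio was 103.9, and 19.6 with doublets kept. The type 1-like class also held RNA of other cells. Inmt, an alveolar fibroblast gene, was at 1421 CPM in type 1-like and 56.0 CPM in type 2-like cells, and Sftpc was at 16010 CPM.

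Finer clustering divided most of the type 1-like cells into 106 cells with 118.9 CPM of Inmt and 86 cells with 3402 CPM. In the 106 cells Tgfb2 was at 209.9 CPM (179.8 to 243.7), Tgfbr2 at 243.9 CPM, Ltbp3 at 183.2 CPM and Tgfb1 at 32.8 CPM, while Ltbp1 and Ltbp2 had no UMI, Tgfb3 and Tgfbr3 1 UMI each, Tgfbi 2 UMIs and Ltbp4 14 UMIs. In the 86 cells Ltbp4 was at 541.7 CPM, Ltbp1 at 84.6 CPM and Tgfbr3 at 69.8 CPM, but Tgfb2 was lower, at 117.3 CPM, and Ager, a type 1 gene, was at 10130 CPM beside 22210 CPM in the 106 cells. Against type 2-like cells, the 106 cells had 2 of 9 genes at least 2-fold higher, Tgfb2 at a ratio of 129.4 (85.3 to 203.7) and Tgfbr2 at 4.62 (3.94 to 5.39), where 28.6% of 10982 genes were, and 4 at most 0.5-fold, where 18.5% were: Ltbp1, Tgfb3, Tgfbr3 and Tgfbi. The intervals of the Ltbp1 ratio (0 to 1.98) and the Tgfbr3 ratio (0.0107 to 2.53) included 1, so these did not differ beyond counting error. Those of Tgfb3 (0.0028 to 0.627) and Tgfbi (0.0054 to 0.162) lay below 1. The ratio of Ltbp4 was 0.926, against 14.1 over all type 1-like cells. The selection of these 106 cells was made after the values were seen.

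Over type 2-like cells, 4 of 9 activation genes were at ratios of 2 or more in the 106 cells and 1 at 0.5 or less. Of the transcripts known to be induced by TGF-beta 2 of 9 were higher and 4 lower. Among all genes with at least 30 UMIs, 28.6% were higher and 18.5% lower by these limits. Itgb6 had 390.7 CPM in the 106 cells and 8.49 CPM in type 2-like cells, a ratio of 46.0 (37.6 to 56.7), and its partner Itgav had 135.9 CPM in the 106 cells and 36.4 CPM in type 2-like cells. Fbln5, which encodes an elastic fibre protein, had 889.5 CPM in the 106 cells and 8.74 CPM in type 2-like cells, Tgm2, a transglutaminase, 212.4 CPM in the 106 cells and 11.2 CPM in type 2-like cells, and Cdkn2b 356.8 CPM in the 106 cells and 5.49 CPM in type 2-like cells. Other known targets went the other way, such as Cdkn1a, with 31.6 CPM in the 106 cells and 98.5 CPM in type 2-like cells. Bmp1, a protease that can cleave Ltbp1, had 18.2 CPM in the 106 cells and 218.5 CPM in type 2-like cells, and the pseudoreceptor gene Bambi had no UMI in the 106 cells and 102.2 CPM in type 2-like cells.

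**Figure D5:**
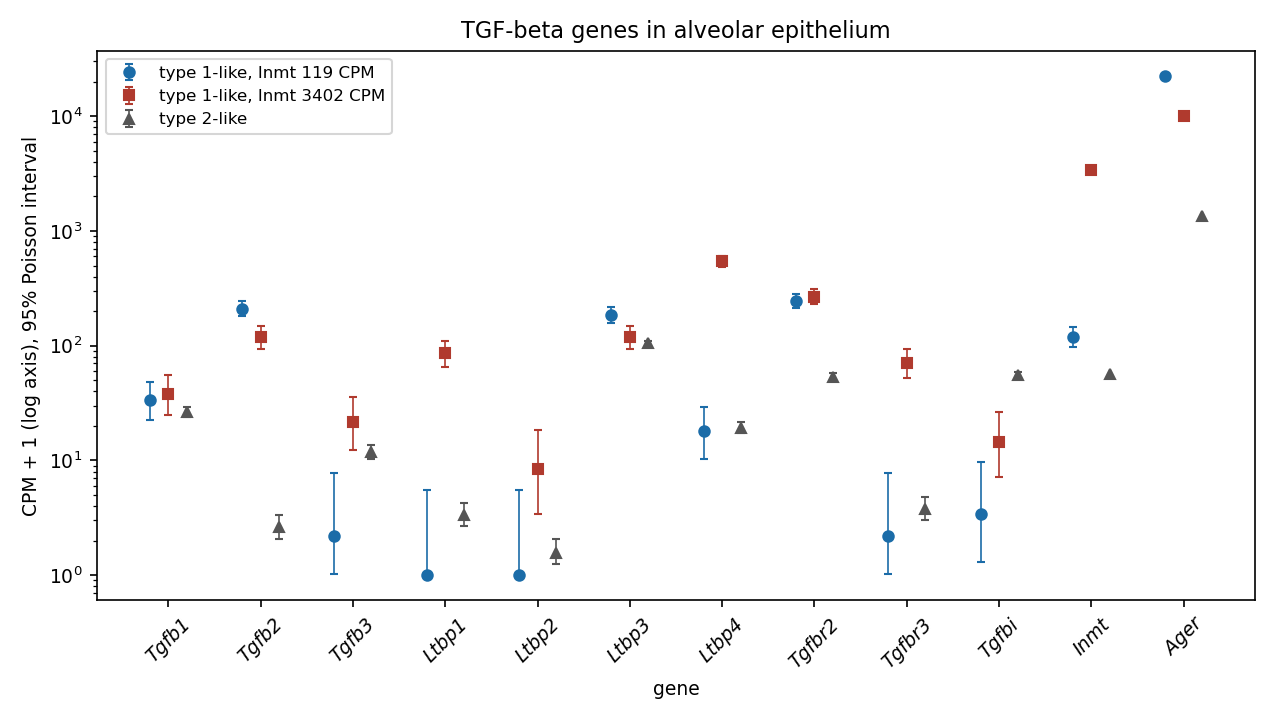
The 10 genes with Inmt and Ager (CPM + 1, log axis, 95% Poisson intervals) in 106 type 1-like cells with 119 CPM of Inmt, 86 type 1-like cells with 3402 CPM, and type 2-like cells. Tgfb2 and Tgfbr2 are high in both kinds of type 1-like cells, whereas Ltbp1, Ltbp4 and Tgfbr3 are high only where Inmt is.

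Within adventitial-like cells, 811 cells with at least 1000 CPM of the reporter Egfp, whose presence marks the Gli1 lineage, were set against 811 cells under 200 CPM, matched within clusters by depth. None of the 10 genes had a ratio of at least 2, as 0.42% of 11182 genes did, or of 0.5 or less, as 0.528% did. The farthest from 1 were Tgfbi, with 391.1 CPM in reporter-high and 310.9 CPM in reporter-low cells, a ratio of 1.26 (1.19 to 1.33), Tgfb1, with 23.0 CPM in reporter-high and 18.5 CPM in reporter-low cells, a ratio of 1.25 (0.992 to 1.57), and Tgfb2, with 65.7 CPM in reporter-high and 79.8 CPM in reporter-low cells, a ratio of 0.823 (0.730 to 0.929). Tgfbr2, with 241.4 CPM in reporter-high and 239.3 CPM in reporter-low cells, had a ratio of 1.01 (0.945 to 1.08), and Ltbp4, with 1876 CPM in reporter-high and 1731 CPM in reporter-low cells, one of 1.08 (1.06 to 1.11). Over all settings tried, the Tgfb2 ratio ran from 0.823 to 1.03, so the reported value was the lowest and the direction did not hold throughout. The Tgfbi ratio ran from 1.24 to 1.43 and the Tgfb1 ratio from 1.14 to 1.47. None of the pathway lists had a gene past either limit.

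The authors' deposited table of 17 clusters gives log2 fold changes with adjusted p-values per gene and cluster, by a test and against a set of cells that the sources used here do not state. In the authors' deposited table Ltbp2 was raised in cluster 7, at a log2 fold change of 2.31 with an adjusted p of 9.09e-15, and in cluster 11, at 2.16 with 2.60e-09, and both clusters were also raised for Notum, Bmp7 and Lamc3, the leading genes of cluster 6 here. The authors' deposited table has Tgfbi raised in its clusters 2 and 3, at 2.07 and 1.73, where Pi16 and Lum, genes of adventitial fibroblasts, were raised. In the authors' deposited table Tgfb2 was raised in cluster 15, at 2.29, where the mesothelial gene Msln was raised, and in cluster 16, at 1.68, where Ager was. Tgfb1 was raised in cluster 6 of the authors' deposited table, at 1.43, a cluster in which Myh11, Higd1b, Ptprc and Pecam1 were all raised.

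Across 21 clusters of at least 50 cells, the genes whose log2(CPM + 1) followed each member most closely among 9831 genes are given as a description, since the clusters share a library and differ in depth and in how many cells of other types they hold. Ltbp4 was followed by Rcn3 (r = 0.987), Loxl1 and Col6a2, all broadly mesenchymal here. Tgfbr3 was followed by Angptl2 (r = 0.971), Ltbp1 by Ecm1 (r = 0.966), Tgfb3 by Fxyd6 (r = 0.930), Tgfbr2 by Peak1 (r = 0.921), Ltbp3 by Bmpr1a (r = 0.920), Tgfbi by Lhfpl2 (r = 0.918), Tgfb1 by Hpcal1 (r = 0.895) and Tgfb2 by Arl6ip5 (r = 0.889). Ltbp2 had the loosest match, Angpt2 (r = 0.794). Among the members themselves, Ltbp1 with Ltbp4 (r = 0.933) and Ltbp4 with Tgfbr3 (r = 0.931) were closest, and Ltbp2 with Tgfbi was near 0 (r = -0.059).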

How the data were processed

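Sorted lung cells of 4 samples with the same labels were profiled by droplet 3′ RNA sequencing. Cell Ranger 3.0.0 and build mm10 were used, per the submitters' processing notes. The values the authors deposited for each gene and barcode are UMI counts that were not normalized. Their cluster table gives, per the file headers, log2 fold changes and adjusted p-values, which were used here, and mean counts, which were not, without saying how they were made. Levels of different genes were not compared, since 3′ counting depends on the gene.

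Barcodes passed with 500 or more genes and mitochondrial UMIs of 10% or less (9391), and 458 of them (4.88%) were removed as doublets called by Scrublet in scanpy. The remaining 8933 cells, with 699 to 77372 UMIs, were clustered with scanpy 1.11.5 and leidenalg 0.10.2 (2000 variable genes, 30 components, 15 neighbours, resolution 1), leaving out the 10 genes, the 6 pathway lists, mitochondrial, ribosomal and reporter genes. A cluster was named by the highest of 19 marker lists with at least 3 detected markers; where the next list came within 10%, the leading genes decided, a rule chosen after the data were seen. UMIs were summed per class. Ratios carry exact conditional binomial intervals and levels exact Poisson intervals at 95%; the calculation was checked on simulated data. Ratios of 2 or more and of 0.5 or less were counted over genes with 30 UMIs or more in both sets together, or 100 for pathway genes. All 10 genes are reported, and from each pathway list the 3 highest and the 3 lowest past these limits could be named. Genes of the 106 type 1-like cells were chosen after their values were seen. Reporter-high and reporter-low cells were matched within clusters by UMIs. Because cells of 1 pooled sample are not replicates, no test was made.

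The 10 genes and the lists were chosen with earlier results of these data known. Alternatives were another cell filter, doublets kept, resolutions 0.5 and 2, clustering and levels from separate UMIs, mean CPM per cell, a minimum of 10 UMIs, near-tie clusters left out and other reporter limits. Gene names come from the files, and promoters from RefSeq (GRCm38.p6).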

Additional observations from a re-analysis of the deposited data

How the results depend on the processing

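No paired analysis was possible because the cells are pooled with no map to samples, and for the same reason no replicate could be left out in turn. Over the alternatives, 132 recounts of genes past a limit stayed within 1.5 times of the reported count and 10 did not. Those for mesothelial-like, mesenchymal over epithelial and reporter-high cells all stayed. For adventitial-like over alveolar-like cells, resolution 0.5 gave 3 genes at ratios of 2 or more, 0 at 0.5 or less and an Ltbp2 ratio of 2.66. Resolution 2, and leaving out near-tie clusters, each gave 0 at 0.5 or less. For myofibroblast-like cells, resolution 2 and mean CPM per cell each gave 2 at ratios of 2 or more. For smooth muscle-like cells, resolution 2 gave 1 such gene and an Ltbp2 ratio of 0.520, and leaving out the pericyte-like cells gave an Ltbp2 ratio of 0.304. For type 1-like over type 2-like cells, 2 were at ratios of 2 or more with doublets kept. With only type 1-like cells low in Inmt, 2 were at ratios of 2 or more and 4 at 0.5 or less. The ratios of Ltbp1, Ltbp4 and Tgfbr3 were then 0, 0.926 and 0.432, each with an interval that included 1. The settings without the pericyte-like cells, with type 1-like cells low in Inmt only and without the shallow cluster 16 were added after the data were seen. Beyond the cells each setting leaves in a class, the cause of these changes was not tested. Depth limits the rarest values, such as Tgfb1 in ciliated-like cells, with 4 UMIs.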

Other observations

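The unnamed cluster of 75 cells, with 109200 CPM of Sftpc and 2352 CPM of Inmt, had 503 CPM of Ltbp4 and 168 CPM of Tgfbr2, both between the alveolar type 2-like and alveolar fibroblast-like levels, and 28 CPM of Tgfb1. Cluster 16, with a median depth under all other fibroblast clusters, had 21.5 CPM of Tgfb2 and 76.7 CPM of Ltbp1, the lowest of both among the alveolar fibroblast-like clusters.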
